A study of Mus musculus with 15 samples.

Results

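The genes described here are 10 that neurons use to build their cytoskeleton and to handle their messenger RNA: Tubb3, Stmn2, Dcx, Elavl3, Elavl4, Map1b, Nefl, Nefm, Gap43 and Ina. They were given as a list of names and are 10 of the 30534 genes counted. Counts per gene and pixel came from 11 transcript libraries of frozen mouse embryo sections, in which barcodes were flowed over the tissue through crossed microfluidic channels so that each crossing is a pixel. The groups were embryonic day 10 (E10) with 50 µm pixels (3 libraries), E10 with 25 µm pixels (1 library), E10 with 10 µm pixels (2 libraries), E11 with 25 µm pixels (2 libraries), E11 with 10 µm pixels (2 libraries) and E12 with 50 µm pixels (1 library). All samples are labelled as embryo tissue. No strain, genotype, sex or treatment is given, and the labels do not say which region or embryo a section covers. Since nothing states that libraries of a group came from separate embryos, p-values measure the spread between these libraries, which may be technical. No width was measured at all 3 stages, so stage, pixel width, section region and embryo cannot be told apart in full.

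A new neuron leaves the cell cycle, moves away from the progenitor layer and then sends out an axon. Tubulins, stathmins, doublecortin and microtubule-associated proteins shape its microtubules from the start, and the Elavl proteins bind AU-rich messenger RNA in early neurons. Neurofilaments, which fill the axon and set its calibre, and the growth cone protein Gap43 are most abundant once axons extend, as in the cranial and spinal ganglia and in motor neurons, which differentiate ahead of most other neurons of the embryo. In what follows, Tubb3, Stmn2, Dcx, Elavl3, Elavl4 and Map1b are the 6 early members, and Nefl, Nefm, Gap43 and Ina are the 4 late members. This is a working split and not a measured order. Stmn2 and Map1b also serve growth cones and growing axons, and Ina is a filament of developing neurons. No index was computed without Ina.

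Tissue pixels (at most 2271 per library) held 1563489 to 11998765 counts per library, with a median of 843.5 to 11332 counts per pixel. Levels are counts per 1000000 counts of the tissue pixels (CPM), summed over each section. In such a sum, fewer neurons and less RNA per neuron cannot be told apart. Sections differed in what they held. The 10 sensory, autonomic and motor neuron markers (among them Isl1, Prph and Pou4f1; ganglion and motor markers below) summed to 15.3 CPM in E10 10 µm replicate 2, where 4 of the 10 were at 0. They summed to 34.6 CPM in E11 10 µm replicate 1, with 1 of 10 at 0, and to 64.6 to 241 CPM in the other 9 libraries. The 8 heart muscle markers were likewise low in E10 10 µm replicate 2 (16.4 CPM) and E11 10 µm replicate 1 (75.5 CPM), against 650 to 5670 CPM elsewhere. E11 10 µm replicate 2 had the lowest sum of the 10 neural progenitor markers (186 CPM, against 462 to 2380 CPM elsewhere) and the highest heart sum. Calls of members are given with and without single libraries.

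The microtubule genes came highest in E10 50 µm. Tubb3 encodes the neuron-restricted beta tubulin (chr8:123411424-123422015, plus strand, build GRCm38 as for all gene positions here). Its level was 485, 325 and 500 CPM in E10 50 µm replicates 1 to 3, 200 in E10 25 µm, 133 and 207 in E10 10 µm, 87.8 and 97.2 in E11 25 µm, 131 and 28.1 in E11 10 µm, and 90.9 in E12. The 3 E10 50 µm libraries lay above all others, and the 2 E11 10 µm libraries differed from each other more than E11 25 µm did. Stmn2 encodes a stathmin that destabilises microtubules in growth cones (chr3:8509360-8561606, plus strand). Its level was 444, 380 and 598 CPM in E10 50 µm, 275 in E10 25 µm, 137 and 151 in E10 10 µm, 111 and 114 in E11 25 µm, 83.3 and 33.9 in E11 10 µm, and 201 in E12. In the order E10 50 µm, E10 25 µm, E12 50 µm, E10 10 µm, E11 25 µm and E11 10 µm, no neighbouring groups of Stmn2 values overlapped.

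Dcx encodes doublecortin, a microtubule-binding protein of migrating neurons (chrX:143855842-143933311, minus strand). Its level was 410, 215 and 433 CPM in E10 50 µm, 176 in E10 25 µm, 87.1 and 118 in E10 10 µm, 59.2 and 97.9 in E11 25 µm, 42.8 and 28.4 in E11 10 µm, and 120 in E12. The E10 10 µm and E11 25 µm values overlapped, and no other neighbours in the order did. Map1b encodes a large microtubule-associated protein of growing axons (chr13:99421446-99516540, minus strand). Its level was 1371, 1746 and 1792 CPM in E10 50 µm, 1105 in E10 25 µm, 623 and 637 in E10 10 µm, 401 and 611 in E11 25 µm, 679 and 243 in E11 10 µm, and 470 in E12. Of the 10 genes, Map1b had the smallest ratio of highest to lowest group mean, 3.55.

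Of the RNA-binding members, Elavl3 had its highest group mean in E10 25 µm and Elavl4 in E10 50 µm. Elavl3 encodes HuC, a neuronal binder of AU-rich messenger RNA (chr9:22015005-22052023, minus strand). Its level was 198, 193 and 363 CPM in E10 50 µm, 252 in E10 25 µm (95% Wilson interval 228 to 278 CPM), 94.4 and 131 in E10 10 µm, 95.5 and 110 in E11 25 µm, 83.3 and 8.02 in E11 10 µm, and 53.2 in E12. The E10 25 µm library lay inside the range of E10 50 µm, so their order is within the spread. Elavl4 encodes the related protein HuD (chr4:110203722-110351909, minus strand). Its level was 214, 118 and 271 CPM in E10 50 µm, 156 in E10 25 µm, 68.1 and 98.5 in E10 10 µm, 39.9 and 89.5 in E11 25 µm, 24.1 and 10.2 in E11 10 µm, and 62.5 in E12. Elavl4 in E10 25 µm also fell inside the E10 50 µm range, and these were the members for which E10 50 µm was not above every other library. Intervals given here cover counting error only.

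Both neurofilament genes were lowest in E10 10 µm replicate 2 and next lowest in E11 10 µm replicate 1. Nefl encodes the light neurofilament subunit (chr14:68083863-68089095, plus strand). Its level was 294, 183 and 214 CPM in E10 50 µm, 131 in E10 25 µm, 57.4 and 6.79 in E10 10 µm, 61.4 and 99.6 in E11 25 µm, 12.8 and 36.5 in E11 10 µm, and 122 in E12. The value in E10 10 µm replicate 2 was 36 counts (95% Wilson interval 4.91 to 9.40 CPM), and that in E11 10 µm replicate 1 was 33 counts (9.14 to 18.0 CPM). Nefm encodes the medium subunit (chr14:68082590-68124846, minus strand). Its level was 343, 261 and 272 CPM in E10 50 µm, 216 in E10 25 µm, 101 and 10.6 in E10 10 µm, 82.5 and 135 in E11 25 µm, 28.4 and 54.3 in E11 10 µm, and 141 in E12. Nefl and Nefm overlap on opposite strands in GENCODE M21, and use of strand in the counting is not given in the sources used here, so reads in the shared stretch may belong to either gene. The low ganglion and motor and heart sums of E10 10 µm replicate 2 moved with its low neurofilament values, and their part in it was not tested.

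Ina encodes alpha-internexin, an intermediate filament of developing neurons (chr19:47014698-47025327, plus strand). Its level was 278, 242 and 341 CPM in E10 50 µm, 115 in E10 25 µm, 63.0 and 61.1 in E10 10 µm, 36.1 and 62.8 in E11 25 µm, 21.8 and 10.2 in E11 10 µm, and 98.3 in E12. The ratio of its highest to its lowest group mean, 18.0, was the widest of the 10 genes. Gap43 encodes a membrane protein of growth cones (chr16:42248442-42340651, minus strand). Its level was 327, 262 and 410 CPM in E10 50 µm, 147 in E10 25 µm, 106 and 68.7 in E10 10 µm, 59.8 and 98.6 in E11 25 µm, 70.0 and 56.5 in E11 10 µm, and 225 in E12 (95% Wilson interval 214 to 237 CPM). Gap43 was the member with E12 second in the order of group means. E11 10 µm had the lowest group mean of all 10 genes, and E10 50 µm the highest of 9.

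**Figure D1:**
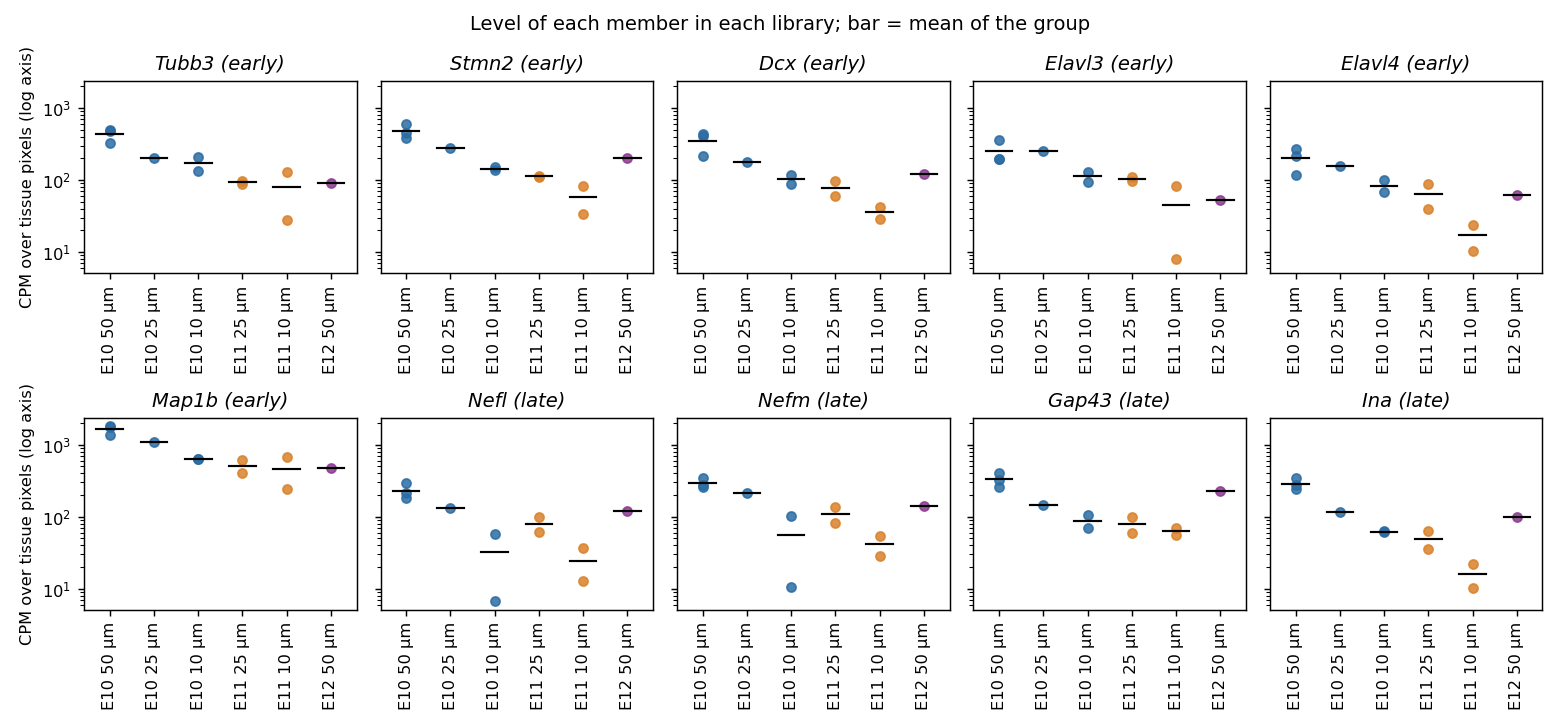
Level of each gene in CPM over tissue pixels (log axis) for the 6 groups of stage and pixel width. Points are libraries and bars are group means. Blue is E10, orange E11 and purple E12. All 10 genes have their lowest group mean in E11 10 µm (Ina 16.0 CPM), and 8 have every E10 50 µm library above all others. These counts were not made over all genes. Nefl and Nefm have 1 E10 10 µm library at 6.79 and 10.6 CPM.

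The first comparison was E11 against E10 over the 10 and 25 µm libraries, as the mean of the stage changes at the 2 widths. Dcx, Stmn2, Elavl4 and Ina were lower at E11, and all 10 genes had a negative log2 fold change, with a median of -1.11 against 0.05 over all 18233 genes tested. The test was edgeR's quasi-likelihood test on summed counts, with p-values adjusted by Benjamini-Hochberg over all genes and called under 0.05. With ± as its approximate standard error, the log2 change was -1.49 ± 0.28 for Ina (2.82-fold lower, adjusted p = 0.016). It was -1.69 ± 0.37 for Elavl4 (3.23-fold lower, adjusted p = 0.0331). So 4 of 10 members were called lower, where 1.67% of all genes were. Two-sided adjusted p-values of the other 6 ran from 0.167 (Tubb3) to 0.725 (Nefl). Stmn2 levels of the 2 stages did not overlap, whereas E11 25 µm replicate 2 lay above the lowest E10 library for Dcx (97.9 against 87.1 CPM), Elavl4 (89.5 against 68.1 CPM) and Ina (62.8 against 61.1 CPM).

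The call of Ina held in 9 of the 10 fits that left out 1 library, that of Elavl4 in 6, that of Dcx in 5 and that of Stmn2 in 2. Leaving out E11 25 µm replicate 1 ended every call. Leaving out the first E10 50 µm library, the second E10 10 µm library or the second E11 10 µm library left 1 call each. Leaving out the third E10 50 µm library left 2 calls, and leaving out the first E11 10 µm library gave 7. Nefl and Nefm, not called, turned positive (0.701 and 0.611) once the first E10 10 µm library was left out. Within 10 µm pixels, Dcx, Elavl4 and Ina were called lower (3 of 10, with 0.773% of all genes lower), with log2 changes of -1.55, -2.31 and -1.99. Of the 11 fits without 1 library, these calls held in 4 for Dcx, 7 for Elavl4 and 9 for Ina. None of the 3 was called by edgeR once the second E11 10 µm library (adjusted p 0.121 to 0.255) or the first E10 10 µm library was left out, and without the second E10 10 µm library Ina alone was. Without the first E10 50 µm library Dcx and Elavl4 were not called, and Dcx was also lost without the third E10 50 µm, the second E11 25 µm or the first E11 10 µm library. Within 25 µm pixels, where E10 has 1 library, edgeR called 0 of 10 (0.241% of all genes were lower) and DESeq2 0, with 2 members at an unadjusted p under 0.05, as were 13.8% of all genes. Log2 changes there ran from -0.50 (Nefl) to -1.09 (Elavl3). The difference between the changes at the 2 widths was called for 0 of 10 members by edgeR, 0 by DESeq2 and 0 at an unadjusted p under 0.05, with 0.137% of all genes called and 8.4% at such a p.

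Some other neural lists were lower in the same E11 sections, and the ganglion and motor markers were not lower as a set. Of those 10 markers, 5 had positive and 5 had negative changes (median -0.014, 1 called higher and 1 lower). They summed to 15.3 to 178 CPM in the 10 and 25 µm libraries of E10 and to 34.6 to 110 CPM at E11. The 10 reference neuron genes that share no name with the members (Stmn3, Mapt, Rtn1, Crmp1, Dpysl3, Celf4, Snap25, Syt1, Gng3 and Nsg2) all had negative changes, with a median of -0.95 and 1 of them, Snap25, called lower. Their sum was 205 to 606 CPM at E11 and 570 to 993 CPM in the 10 and 25 µm libraries of E10. The summed members were 1.71 to 2.95 times that reference at E11 and 1.93 to 2.79 times at E10, ranges that overlapped. Progenitor markers had negative changes in 9 of 10 genes (847 to 1577 CPM at E10, 186 to 1271 CPM at E11, 0 called) and the 9 newborn neuron factors in 9 of 9 (158 to 301 and 44.5 to 187 CPM, with Neurod1 and Insm1 called lower). Liver markers had positive changes in 8 of 8 (8.25 to 74.2 and 59.1 to 3817 CPM, 0 called) and heart markers in 8 of 8 (16.4 to 2368 and 75.5 to 5670 CPM, 0 called). The part of this makeup of the sections in the lower levels was not tested.

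Promoters of Dcx, Elavl4 and Ina, called lower at E11, are shown as a description. Stmn2, also called, had no listed promoter, and shared control was not tested. Of the 10 genes, 6 had an entry in the RefSeq table of promoters (build GRCm38.p6): Tubb3, Dcx, Elavl3, Elavl4, Map1b and Ina. Each window is the 250 bases before the start listed farthest upstream, written 5′ to 3′ on the gene's strand. Capitals mark CAGNTG, an E-box core of the kind bound by proneural factors, or TATAAA, the TATA box core. Both strands were searched for each, and the 2 cannot overlap in sequence.
Dcx, chrX:143933220-143933469, minus strand: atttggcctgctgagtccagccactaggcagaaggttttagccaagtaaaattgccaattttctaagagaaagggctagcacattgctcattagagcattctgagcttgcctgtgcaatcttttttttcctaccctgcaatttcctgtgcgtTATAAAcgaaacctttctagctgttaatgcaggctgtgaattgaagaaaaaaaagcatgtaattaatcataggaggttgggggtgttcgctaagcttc
Elavl4, chr4:110351912-110352161, minus strand: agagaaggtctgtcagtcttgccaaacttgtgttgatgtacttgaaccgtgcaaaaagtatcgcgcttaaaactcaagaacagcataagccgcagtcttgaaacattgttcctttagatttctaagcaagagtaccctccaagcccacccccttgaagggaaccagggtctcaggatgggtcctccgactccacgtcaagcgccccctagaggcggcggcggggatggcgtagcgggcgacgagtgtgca
Ina, chr19:47014431-47014680, plus strand: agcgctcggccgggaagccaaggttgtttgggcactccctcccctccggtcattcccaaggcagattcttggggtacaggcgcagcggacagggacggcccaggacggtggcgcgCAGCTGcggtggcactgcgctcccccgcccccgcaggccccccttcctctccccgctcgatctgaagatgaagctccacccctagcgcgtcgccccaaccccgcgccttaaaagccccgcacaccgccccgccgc
The windows differ widely in base composition, with 41.6% G and C and 3 CpG in Dcx, 53.6% and 14 in Elavl4, and 70.8% and 25 in Ina. Dcx has 1 TATAAA, Ina has 1 CAGNTG, and Elavl4 has neither in this window. CAGNTG occurred in 3 of the 6 matched members and in 44.55% of the 27025 windows of the same length, and TATAAA in 3 of 6 and in 12.98%. These matches are descriptions of letters and not of bound sites.

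The other genes of the same pathways were mostly negative at E11 as well. Of 20 related microtubule genes, 19 had negative changes (median -0.64) and 2 were called lower: Stmn1, the stathmin of dividing and newborn neural cells (-1.80 ± 0.23, adjusted p = 0.00154), and Kif1a, an axonal kinesin (-1.78 ± 0.32, adjusted p = 0.0129). Levels of Stmn1 averaged 222 CPM at E11 and 791 CPM at E10, and the stages did not overlap. Within 10 µm pixels, Stmn1, L1cam and the doublecortin relative Dclk1 (-2.20 ± 0.53, adjusted p = 0.0472) were called lower by edgeR, and within 25 µm pixels Stmn1 was. Of 10 related filament and growth cone genes, 7 were negative (median -0.28) and 1 was called lower, the adhesion molecule L1cam (-1.47 ± 0.30, adjusted p = 0.0232). Nefh, the heavy neurofilament subunit, had a log2 change of 1.59 ± 0.84 that was not called (adjusted p = 0.274). Of 12 related RNA-binding genes, 10 were negative (median -0.82), and edgeR called 0, DESeq2 called 2 and 8 had an unadjusted p under 0.05, as did 23.1% of all genes.

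At 50 µm, E12 was compared with E10, with 1 library against 3. All 10 log2 changes were negative, from -0.60 ± 0.39 for Gap43 to -2.29 ± 0.70 for Tubb3, with a median of -1.58 against -0.04 over all genes. The E12 library lay below all 3 E10 libraries for each of the 10. How many of all genes had the lone E12 library lowest was not counted, so this order does not single out the members. edgeR called 0 of 10, where 0.214% of all genes were called lower, DESeq2 called 4, and 6 had an unadjusted p under 0.05, as did 14.4% of all genes. Leaving out either E11 10 µm library gave 4 calls. The lowest adjusted p was 0.0905, for Ina, with a log2 change of -1.58 ± 0.44. The fit gives the lone E12 library the spread found in the replicated groups. Of the 20 related microtubule genes 19 were negative, and Stmn1 was called lower (-2.05 ± 0.39, adjusted p = 0.0198).

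Some marker lists also differed between E12 and E10 50 µm. The 10 progenitor markers were all negative (median -2.70, 462 CPM at E12 against 1572 to 2380 CPM, 0 called), and of the 9 newborn neuron factors all were negative and Dll3 was called lower. Ganglion and motor markers summed to 181 CPM at E12, inside the E10 range of 145 to 241 CPM. Red cell markers summed to 89534 CPM at E12 against 16529 to 31819 CPM at E10, with Hba-a1, Hba-a2, Hbb-bt and Hbb-bs called higher and the embryonic globin Hbb-bh1 called lower. Liver markers summed to 3638 against 59.4 to 137 CPM, with Ahsg called higher. The mesenchyme genes Col1a1 and Col1a2, the muscle genes Myog and Myod1 and the epithelial keratin Krt5 were also called higher. These sums move with the section's makeup, and their part in the members' values was not tested.

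Pixel width was compared within a stage. At E10, 10 µm libraries had lower Gap43 (-1.90 ± 0.32, 3.73-fold lower, adjusted p = 0.0492) and lower Ina (-2.18 ± 0.34, 4.54-fold lower, adjusted p = 0.0339) than 50 µm libraries. All 10 members were negative (median -1.72, against -0.03 over all genes), and 2 of 10 were called lower, where 0.104% of all genes were. For each of the 10 genes, both 10 µm libraries lay below all 3 of the 50 µm libraries. The share of all genes separated in this way was not counted, so this does not set the members apart. DESeq2 called 6 of 10, and 9 had an unadjusted p under 0.05, as did 10.8% of all genes. Leaving out E10 10 µm replicate 2 ended both calls, as did leaving out any 1 of the E10 50 µm or E11 25 µm libraries. Leaving out the first E10 10 µm library gave 3 calls, and leaving out either E11 10 µm library gave 4. Leaving out the E10 25 µm or the E12 library left 1. These values share the E10 10 µm libraries with the E11 comparison. Of the related genes, Rbfox1, a neuronal splicing factor, was called lower (-2.17 ± 0.32, adjusted p = 0.0339).

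At E11, 10 µm libraries were lower than 25 µm libraries for Ina (-1.75 ± 0.38, 3.36-fold lower, adjusted p = 0.0333). It was 1 of 10 members called lower, where 0.455% of all genes were, and all 10 were negative (median -1.28). Levels of Tubb3, Map1b and Gap43 overlapped between the widths, with log2 changes of -0.36, -0.26 and -0.44, and those of the other 7 did not. With 2 libraries at each width, the share of all genes without overlap was not counted, so the 7 are a description. Tubb3 (0.354) and Map1b (0.284) turned positive once the second E11 10 µm library was left out, and Map1b (0.0352) once the second E11 25 µm library was. The call of Ina held in 7 of the 11 fits without 1 library, and no member was called once either E11 25 µm library, the second E11 10 µm library or the first E10 50 µm library was left out. Leaving out the first E11 10 µm library gave 4 calls. Of the related genes, Cntn2, an axonal adhesion molecule (-2.11 ± 0.43, adjusted p = 0.0239), and Rbfox1 (-1.60 ± 0.37, adjusted p = 0.0449) were called lower. Ganglion and motor markers summed to 105 and 110 CPM at 25 µm and to 34.6 and 64.6 CPM at 10 µm, and their part in these values was not tested.

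**Figure D2:**
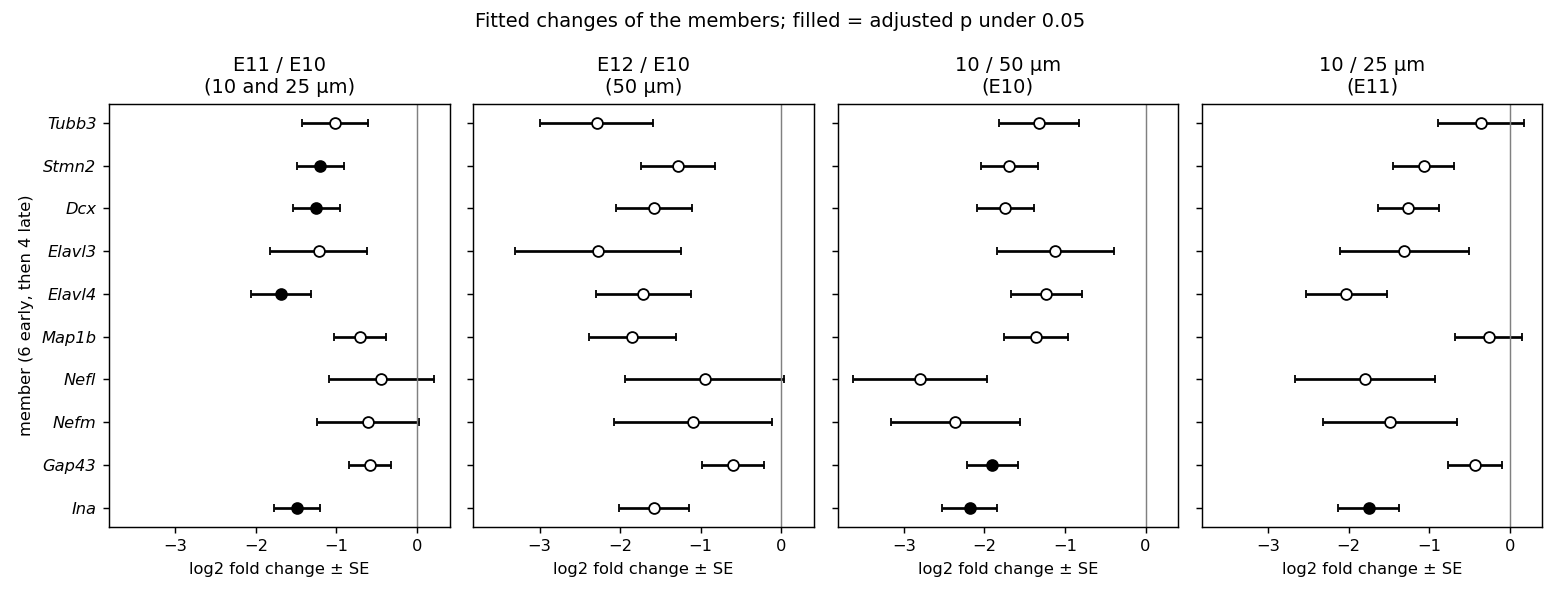
Fitted log2 fold changes (points) with approximate standard errors (bars) of the 10 genes in 4 comparisons, first group over second. Filled points have an adjusted p under 0.05. All 40 estimates lie below 0, from -0.26 (Map1b, 10 against 25 µm at E11) to -2.80 (Nefl, 10 against 50 µm at E10), and 7 are filled. E12 against E10 and the width comparison at E10 share the 3 E10 50 µm libraries, and E11 against E10 shares libraries with both width comparisons, so the 40 estimates are not independent.

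Spatial extent was described after each pixel had been thinned to 500 counts, leaving out shallower pixels. This kept 83.0% of tissue pixels in E10 25 µm, 91.1% and 87.8% in E11 10 µm, and 99.69% or more elsewhere. A wider pixel covers more tissue, so shares at different widths do not compare extent. At least 1 count of any member was then seen in 72.3% to 82.7% of E10 50 µm pixels, 62.6% of E10 25 µm, 41.1% and 45.1% of E10 10 µm, 32.8% and 40.6% of E11 25 µm, 35.2% and 22.02% of E11 10 µm, and 36.2% of E12 pixels. A late member was seen in fewer pixels than an early member in each library, 30.9% to 37.1% against 65.5% to 76.9% in E10 50 µm and 15.2% against 27.1% in E12. The late list is shorter, so these shares do not rank the lists. Map1b was seen in 11.2% to 53.2% of thinned pixels (median of libraries 24.4%), and the median of each other gene was between 3.19% (Ina) and 5.75% (Tubb3). Without thinning, Nefl had a count in 55.3% to 75.0% of E10 50 µm pixels and 20.3% of E12 pixels.

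The pixels that held 50% of a gene's counts were counted in each library. In E10 50 µm they made up 8.20% (Nefl, replicate 2) to 20.98% (Map1b, replicate 3) of tissue pixels. In E11 10 µm replicate 2, Ina had 28 counts, at most 1 in a pixel, and its share was 0.73%. The share of tissue pixels that held 50% of the counts had a median over libraries of 2.18% for Nefl, 3.06% for Ina, 3.26% for Gap43 and 3.28% for Nefm among late members. Among early members it was 4.13% for Elavl4, 4.28% for Stmn2, 4.89% for Dcx, 5.77% for Elavl3, 5.95% for Tubb3 and 13.3% for Map1b. This share falls with a low count, since a gene with few counts can fill few pixels. It thus does not by itself order the genes or show that their counts are packed. The share was not computed for other genes.

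How alike neighbouring pixels were differed between libraries. Moran's I, which is near 0 when a gene's pixels are scattered and nears 1 when neighbours match, was computed on log2(count per 10000 + 1) over the 4 nearest pixels. In E10 50 µm it was 0.27 (Elavl4, replicate 2) to 0.57 (Map1b, replicate 1), and the members ranked 9th to 215th of 11615 to 12396 genes detected in 5% of pixels or more. In E12 it was 0.24 (Dcx) to 0.40 (Ina). In E11 25 µm replicate 2 Elavl3 reached 0.51 and Nefl 0.25. In replicate 1 Elavl3 was at 0.41, Nefl at 0.15, Tubb3 at 0.13 and Dcx at 0.09, where Dcx ranked 792nd of 7146 genes. In E11 10 µm replicate 1 Map1b was at 0.34 and Dcx at 0.01, ranking 6th and 2959th of 4917 genes. In E10 10 µm replicate 2, Nefl was at -0.01 and Nefm at 0.01, with 36 and 56 counts, while Dcx was at 0.24 and Stmn2 at 0.24. In E11 10 µm replicate 2, Map1b was at 0.06, and Tubb3, Stmn2, Dcx, Elavl3, Elavl4, Nefl and Ina were seen in too few pixels to rank. A low Moran's I in a sparse library is also what few counts give, and the share of each was not tested.

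**Figure D3:**
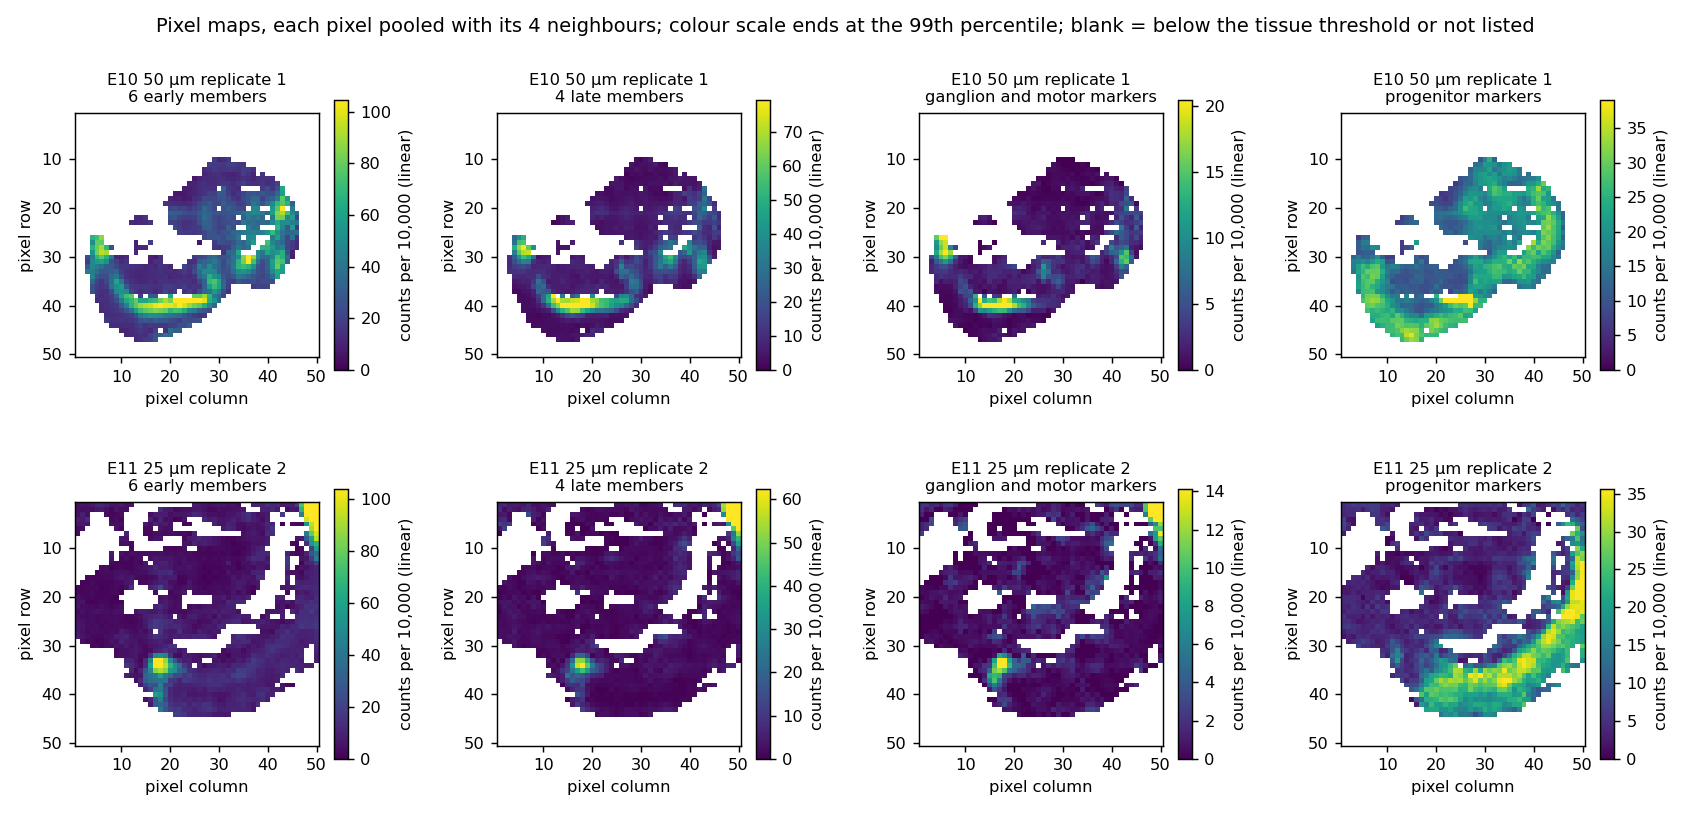
Maps of the summed 6 early members, 4 late members, ganglion and motor markers and progenitor markers in E10 50 µm replicate 1 (top) and E11 25 µm replicate 2 (bottom), on the pixel grid. Colour is counts per 10,000 on a linear scale, pooled over a pixel and its 4 neighbours, and each panel has its own scale. In the top section, the pixel highest for the early members (114.9) has 53.6 for the late members, 8.20 for the ganglion and motor markers and 54.5 for the progenitor markers. Of 86 pixels in each marker set of the top section, 9 were in both the ganglion and motor and the progenitor set.

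Pixels were then sorted by marker genes that are not members. For each list, the 10% of tissue pixels with the highest share of list counts, pooled over a pixel and its 4 neighbours, was taken in each library, and the level of the members there was divided by that in all tissue. In pixels chosen by the 10 reference neuron genes, the summed members were 3.08 times as high (median of 11 libraries, 1.98 to 4.91). In ganglion and motor pixels they were 2.53 times as high (1.18 to 4.75), above 1 in 11 of 11. In newborn neuron pixels the ratio was 1.66 (1.06 to 3.94) and in progenitor pixels 1.16 (0.82 to 4.54). In heart, mesenchyme, muscle, epithelium and red cell pixels its median was 0.57 to 0.62. The overlap of heart and muscle pixels was not counted, so their medians may rest partly on the same pixels. The median ratio was 0.92 in liver pixels (above 1 in 3 of 11 libraries) and 0.91 in endothelium pixels (above 1 in 4). The liver median mixes stages: the ratio was 0.92 to 1.12 at E10, where liver markers summed to 8.25 to 137 CPM over all tissue. It was 0.38 to 0.64 at E11 (59.1 to 3817 CPM) and 0.27 at E12 (3638 CPM). In E11 10 µm replicates 1 and 2 the ratio was 1.51 and 1.74 in mesenchyme, 1.78 and 1.16 in heart and 1.09 and 1.12 in red cell pixels, against at most 1 for these 3 lists in the other 9 libraries. Ganglion and motor pixels of E11 10 µm replicate 1 had a ratio of 1.18, below that of its mesenchyme and heart pixels. Its ganglion and motor set held 52 list counts and its heart set 94, in 164 pixels each, against 954 in its mesenchyme set. With so few list counts, the first 2 sets may not mark those tissues.

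Every member had a higher median ratio in ganglion and motor pixels than in progenitor pixels, by a graded amount. Nefl was 4.65 times and Nefm 4.11 times as high in ganglion and motor pixels as in all tissue (medians of 11 libraries), and 1.08 and 0.93 times in progenitor pixels. Gap43 (3.14 and 0.93) and Ina (3.18 and 0.96) gave the same order. Elavl3, by contrast, was 2.24 times as high in ganglion and motor pixels and 2.01 times in progenitor pixels, and it was above 1 in progenitor pixels in 11 of 11 libraries. For Elavl4 the ratios were 2.98 and 1.68, for Tubb3 2.09 and 1.45, for Map1b 2.14 and 1.22, for Stmn2 3.04 and 1.18, and for Dcx 2.78 and 1.13. In E11 25 µm, Nefl was at 331 and 546 CPM in ganglion and motor pixels of replicates 1 and 2 and at 38.6 and 54.1 CPM in their progenitor pixels. Elavl3 was at 304 and 403 CPM and at 226 and 220 CPM in the same pixels.

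**Figure D4:**
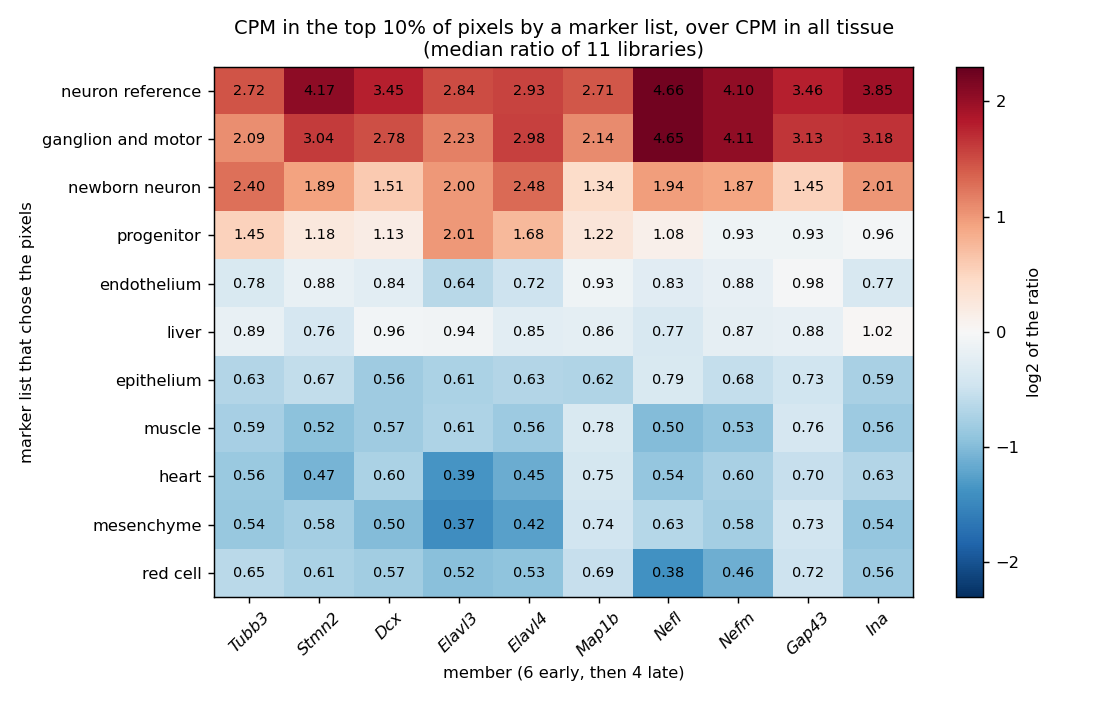
Level of each gene in the top 10% of pixels by a marker list, divided by its level in all tissue pixels, as the median of 11 libraries (number and colour, log2 colour scale). Rows are the marker lists that chose the pixels, and none of their genes is a member. Nefl and Nefm have their highest ratios in reference neuron and ganglion and motor pixels (4.66 and 4.65 for Nefl), and Elavl3 has the highest ratio in progenitor pixels (2.01).

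An index put the late against the early members. It is the mean log2(CPM + 1) of the 4 late members minus that of the 6 early members, so a change that scales all 10 alike leaves it nearly unmoved. Over all tissue it was -0.42, -0.44 and -0.82 in E10 50 µm, -0.89 in E10 25 µm, -0.78 and -2.83 in E10 10 µm, -0.76 and -0.51 in E11 25 µm, -1.73 and 0.18 in E11 10 µm, and 0.18 in E12. The E11 mean was -0.71 ± 0.79 (SD, n = 4) and the E10 mean -1.03 ± 0.90 (SD, n = 6). They differed by 0.33 (two-sided exact permutation p = 0.624, the same after adjustment over 3 tests). The E10 mean includes the 50 µm libraries, a width without E11 libraries, so this difference mixes stage with width. Once E10 10 µm replicate 2 was left out, the difference was -0.0334 (exact permutation p = 0.9365). Within 10 µm it was 1.03 and within 25 µm 0.25, where an exact permutation test of so few libraries cannot pass 0.05.

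Within sections the index did differ. It was higher in ganglion and motor pixels than in progenitor pixels in 10 of 11 libraries, by 0.75 on average (-0.42 against -1.16, two-sided exact sign-flip permutation p = 0.001953, adjusted over 3 tests 0.00293). The difference was 0.86, 0.50 and 0.82 in E10 50 µm, 1.07 in E10 25 µm, 0.71 and 0.61 in E10 10 µm, 1.56 and 1.49 in E11 25 µm, -0.10 and 0.44 in E11 10 µm, and 0.27 in E12. The pair of E11 25 µm libraries was highest, and E11 10 µm replicate 1 was the library with the opposite sign. Its ganglion and motor set held 52 list counts. That of E10 10 µm replicate 2, a positive library, held 79, and that of E11 10 µm replicate 2, also positive, held 83. The sets of the other libraries held 171 to 1271. With so few list counts, the sets of these 10 µm libraries may not mark those neurons. With no pooling over neighbouring pixels the mean difference was 0.499 and lost the call (exact permutation p = 0.04492, adjusted over 3 tests 0.06738). Against newborn neuron pixels, the index in ganglion and motor pixels was higher by 0.49 on average, also in 10 of 11 libraries (two-sided exact sign-flip permutation p = 0.001953, adjusted 0.00293). E11 10 µm replicate 2 was the exception there, at -0.09. The background above places neurofilaments and Gap43 in ganglia and motor neurons, and markers of those cells chose the pixels. The members and lists were also chosen with earlier results of these data known. A higher index in ganglion and motor pixels was thus partly built in. The p-values of the pixel sets measure its evenness over libraries and are not independent support.

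The marker sets shared pixels. Ganglion and motor pixels shared 4 to 50 of 83 to 227 pixels with the progenitor set and 12 to 99 with the newborn neuron set. When pixels in both sets were dropped, a choice made once the data had been seen, the differences were 1.03 (exact permutation p = 0.0009766, the smallest the test can give) and 0.98 (exact permutation p = 0.004883). The marker lists and the members were read from the same pixels and libraries, so a pixel's depth enters both.

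**Figure D5:**
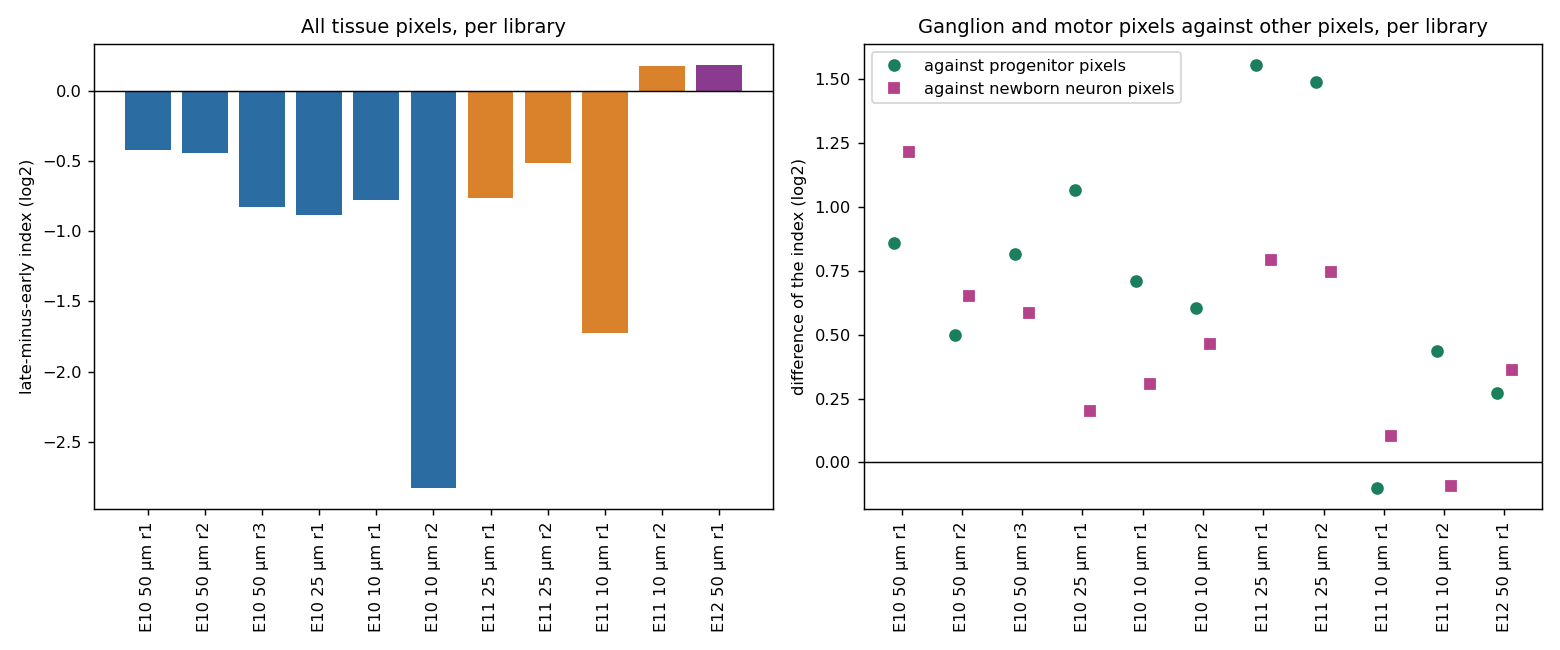
Left, the late-minus-early index (log2) over all tissue of each library, with blue for E10, orange for E11 and purple for E12. Right, the index in ganglion and motor pixels minus that in progenitor pixels (circles) or newborn neuron pixels (squares) of the same library. On the left E10 10 µm replicate 2 is lowest at -2.83, and on the right 10 of 11 circles and 10 of 11 squares lie above 0.

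Across pixels, members went together most where counts were deepest. In E10 50 µm, the mean Pearson's r of log2(count per 10000 + 1) between pairs was 0.43 to 0.49 among early members, 0.49 to 0.61 among late members and 0.42 to 0.50 between the lists (up to 859 pixels). In E12 these were 0.32, 0.36 and 0.32 (1535 pixels), and in E11 10 µm replicate 2 they were 0.02, 0.05 and 0.03 (1930 pixels). Nefl with Nefm was the highest pair in E10 50 µm replicates 1 and 2 (0.66 and 0.60), in E10 25 µm (0.28) and in E10 10 µm replicate 1 (0.52), beside their overlapping gene models. In E10 10 µm replicate 2 their r was -0.0009. Elavl3 with Gap43 was the lowest pair in all 3 libraries of E10 50 µm (0.25 to 0.37). Pixels of a library share depth and position, so these values are descriptions.

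Among 2788 genes detected in 5% or more of the pixels in every library, the patterns most like the summed members were those of Tuba1a (mean r over 11 libraries 0.35, range 0.08 to 0.68) and Tubb2b (0.31), both tubulins. Sox11, a transcription factor of new neurons, and Ncam1, a neural adhesion molecule, followed at 0.27 each. Then came the reference neuron gene Dpysl3 (0.27), the progenitor marker Nes (0.25), Tmsb4x (0.24), Ank3 (0.22), Basp1 (0.21) and Stmn1 (0.20). The lowest r of any library was -0.011 for Ank3 and -0.002 for Nes, and above 0 for the others. The lowest were Mki67, a proliferation marker (-0.12), Gpc3 (-0.11), Hmga2 (-0.11), Fbn2 (-0.10) and Eno1 (-0.10). Their highest r of any library was above 0, from 0.016 (Eno1) to 0.10 (Hmga2).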

How the data were processed

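Per the labels' protocols, frozen sections were made into Nextera XT libraries and sequenced in pairs on a HiSeq instrument. The authors deposited whole-number counts per gene and pixel with no normalization. The submitters' processing notes name CASAVA 1.8.2 and the build GRCh38, a human build, for these mouse samples. The aligner, annotation and use of strand are not given in the sources used here. GENCODE M21 and RefSeq supplied positions and promoters. Groups came from the labels' stage and resolution. The 4 antibody libraries were not used.

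A pixel was tissue when its total reached 0.1 of the 95th percentile of its library. Counts were summed over tissue pixels and fitted with edgeR 4.0.16 (R 4.3.3, TMM factors, default low-count filter by group, robust quasi-likelihood, 6 group means, 11 libraries, 5 residual degrees of freedom, 18233 genes). All 10 members passed the filter. Group means share 1 estimate of the spread, which single-library groups borrow. Standard errors are the log2 change divided by the square root of F. DESeq2 1.42.0, RLE factors, no low-count filter, other tissue thresholds (0.05, 0.2 and all pixels) and leaving out each library were the alternatives. The marker sets and index were computed with Python 3.11.15, numpy 2.4.6 and scipy 1.17.1. The scripts were tested on simulated data.

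Named genes are the 10 members, related genes called in a comparison of the report and the 10 most and 5 least similar pixel patterns. Nefh and the called marker genes named beside these were chosen after their values were seen. Some genes of the ganglion and motor list are not reported here by name. The members and lists were chosen with earlier results of these data known. Overlapping gene models exist for 7 of 10 members, among them Ina with Nt5c2 on the opposite strand.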

Additional observations from a re-analysis of the deposited data

Results flagged for a closer look

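The late-minus-early index of E10 10 µm replicate 2 was -2.83, far below the other 5 E10 libraries (-0.89 to -0.42). Its gap to the nearest of them was 0.807 of the whole E10 range, above the 95% critical value of 0.625 for 6 samples, which chance passes in about 1 of 20 groups. Nefl and Nefm had 36 and 56 counts there, and 4 of 10 ganglion and motor markers were at 0. Whether the section's region sets the value was not tested.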

How the results depend on the processing

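Of 1000 recomputed log2 changes of members, 889 kept direction and side of the threshold, 54 lost the call, 48 gained one and 9 reversed. Reversals came with 1 library left out, none of them called, and are given with their range over the libraries left out. Without the first E10 10 µm library Nefl was 0.701 and Nefm 0.611 for E11 against E10 (lowest -0.935 and -1.03), and 1.83 and 1.93 at 10 µm (lowest -1.37 and -1.28). Nefl was 0.196 at 10 µm with E11 10 µm replicate 1 left out. With the other E11 10 µm library left out, Tubb3 was 0.354 (lowest -1.80) and Map1b 0.284 (lowest -1.13) for 10 against 25 µm at E11, and Map1b was 0.0596 at 10 µm for E11 against E10 (lowest -1.36). Map1b was 0.0352 for 10 against 25 µm with E11 25 µm replicate 2 left out. Members called, leaving out 1 library, ran from 0 to 7 (E11 against E10, 4 with all), 0 to 4 (E12, 0 with all), 0 to 4 (width at E10, 2 with all) and 0 to 4 (width at E11, 1 with all). DESeq2 called 4 (E12), 6 (width at E10) and 2 (width at E11). With no low-count filter 5, 7 and 3 were called. For width at E10, RLE factors or a tissue threshold of 0.2 left 1. The cause was not tested. E11 libraries share numbers 1 and 2 across widths, but their deviations correlated at r = 0.08 and no label ties them. With a replicate block 0 members were called, and it called 297 genes against 378. Of all genes, 656, 390, 20 and 378 were called in the 4 comparisons in that order, against 1988, 1328, 731 and 870 with no low-count filter and 1392, 513, 407 and 554 with DESeq2. Leaving out 1 library gave 144 to 1465, 98 to 969, 0 to 164 and 33 to 463. The index difference of E11 against E10 reversed to -0.0334 once E10 10 µm replicate 2 was left out and ran to 0.67 over the libraries left out. Both pixel-set differences stayed positive (0.50 to 1.09 against progenitor and 0.41 to 0.98 against newborn neuron pixels) in the alternatives run. The call was lost in 1 of them, the progenitor difference of 0.4993 with no pooling over neighbours (exact permutation p = 0.04492, adjusted 0.06738). Thinning to 1000 counts raised the median share of pixels with a member's count from 5.14% to 9.32%, and taking 5% of pixels in place of 10% raised the ganglion and motor ratio from 2.53 to 3.38. Depth limits the sparsest values: Nefl had 36 counts in E10 10 µm replicate 2 and 33 in E11 10 µm replicate 1, and E11 10 µm replicate 2 had 22 of Elavl3, 28 of Elavl4 and 28 of Ina.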

Other observations

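In E12 the difference between neural pixels was narrower. Progenitor pixels there had 5.94 times the Elavl3 level and 4.88 times the Nefl level of all tissue, and ganglion and motor pixels 5.36 and 5.72 times, with 50 of 154 pixels in both sets. In E11 25 µm replicate 1, where 5 of 170 pixels were in both sets, the Nefl ratios were 0.63 and 5.39.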
